A study of Homo sapiens with 14 samples.

Results

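The regulatory (R) region of CFTR was taken as residues 651 to 850, which are 200 of the 1480 residues of the protein, or 13.5% of its length. It was chosen by position alone. A residue's value is the number of sequenced fragments that the authors assigned to it, and residues not listed for a library were counted as 0. The 14 libraries held 17636 reads in the region.

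CFTR is the epithelial chloride channel mutated in cystic fibrosis. The R region joins the first nucleotide-binding domain (NBD1) to the second membrane domain. It has little fixed structure in isolation, and its phosphorylation by protein kinase A permits the channel to open. In ribosome profiling, a nuclease digests mRNA outside the ribosomes and the protected pieces are sequenced, so a codon with many pieces is one where ribosomes often sat. A stretch with many fragments can be one that ribosomes cross slowly.

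All libraries came from HEK293, an immortalized line from human embryonic kidney, made to overexpress a CFTR construct, and footprints were made with RNase I. The 4 constructs differ in synonymous codons and encode the same protein. WT carries the native codons (n = 5 libraries). High-abc is a construct with replaced synonymous codons (n = 5), which the labels do not list. In High-Leu558 the native UUA codon of Leu558 alone was replaced by CUC (n = 2), and in WT-Leu558-in-High-abc the native Leu558 codon was put back into High-abc (n = 2). Leu558 lies in NBD1, 93 residues before the start of the R region, so a ribosome passes it before it reaches the region. Whether High-abc replaces codons inside the R region is not given in the sources used here. In the reference assembly GRCh38.p14 the native gene spans chromosome 7, 117480025 to 117668665. The constructs were expressed heterologously, and every position here is a residue number. The data hold CFTR reads only, so the identity of the line was not checked, and mRNA levels were not analysed here.

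The total number of CFTR reads ranged from 2463 to 32630 per library. Of these, 324 to 4265 lay in the R region, which is 1.62 to 21.3 reads per residue. Between 22 and 91 of the 200 residues had no read in a given library. Residues 699, 701 and 809 had none in any library, and 37 residues had a read in all 14. Single residues were therefore sparse, and sums over 10 residues or more are better measured.

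The first question was how much of the translation signal of CFTR falls in the R region, and whether the constructs differ in it. It took about the same portion of the reads with every construct, and that portion was close to its portion of the length. The shares in the WT libraries, from replicate 1 to 5, were 12.3%, 13.1%, 12.7%, 14.3% and 13.2%. Those in High-abc were 12.0%, 14.1%, 13.2%, 13.6% and 12.7%. The WT and High-abc values covered nearly the same range. The shares in High-Leu558 were 13.6% and 14.5%. Those in WT-Leu558-in-High-abc were 13.4% and 13.1%, inside the range of both groups of 5. The highest single value, in High-Leu558, was above all 5 WT libraries, but the lower one was not.

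The mean share was 13.1% ± 0.737 (SD, n = 5) in WT and 13.1% ± 0.803 (SD, n = 5) in High-abc. High-Leu558 had 14.1% ± 0.611 (SD, n = 2) and WT-Leu558-in-High-abc 13.2% ± 0.171 (SD, n = 2). High-abc differed from WT by 0.002 on the log2 scale (standard error 0.05, exact permutation test, p = 0.968). High-Leu558 lay 0.10 above WT on the log2 scale (standard error 0.06), with p = 0.190 by the exact permutation test. The 7 comparisons consisted of 5 pairs of groups, the native against the replaced Leu558 codon over both backgrounds, and the High-abc against the WT background. None passed, with adjusted p between 0.667 and 0.968 (two-sided exact permutation tests, Benjamini-Hochberg). With 5 libraries against 2 the smallest p these tests can give is 0.0952, so no such pair could pass. With 5 against 5 it is 0.00794, which after adjustment over 7 comparisons passes only if another comparison also has a small p. For the comparisons over both backgrounds it is 0.00454, which can pass alone.

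**Figure D1:**
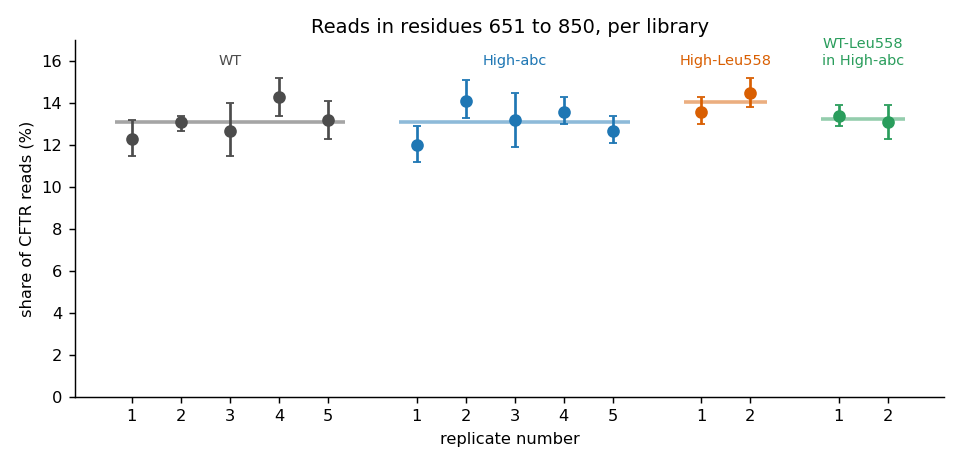
Share of each library's CFTR reads that lie in residues 651 to 850, in percent on a linear axis from 0, by construct and replicate number. Points are libraries with their 95% Wilson interval, which covers counting error only, and horizontal lines are group means; all points lie between 12.0% and 14.5%.

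The region was next compared with the stretch that ribosomes cross before Leu558. The number of reads per residue in the R region was divided by that in the 150 residues 399 to 548, which end before Leu558 and its neighbours. This ratio of densities was 1.30 ± 0.132 (SD, n = 5) in WT and 1.19 ± 0.291 (SD, n = 5) in High-abc. It was 1.29 ± 0.133 (SD, n = 2) in High-Leu558 and 1.09 ± 0.0805 (SD, n = 2) in WT-Leu558-in-High-abc. The spread in High-abc was wide, from 0.960 to 1.68, and held the values of all the other libraries. Over both backgrounds, the native Leu558 codon against the replaced one gave a log2 difference of -0.046 (standard error 0.10, exact permutation test, p = 0.848). The High-abc background lay 0.20 below that of WT, a log2 difference of -0.20 (standard error 0.10, exact permutation test, p = 0.181). It was -0.11 under a block by replicate number, a test with too few pairs of libraries for any result to pass. Over all residues from 21 to 548 it was -0.12 (exact permutation test, p = 0.0317, adjusted p = 0.222). It was -0.26 without High-abc replicate 2 (exact permutation test, p = 0.0190, adjusted p = 0.133). None of the 7 comparisons passed (smallest adjusted p = 0.667, exact permutation tests).

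Set against its neighbours in the same library, the R region did not differ in reads per residue beyond the spread between libraries. Against residues 401 to 650, which cover most of NBD1, the mean log2 ratio of densities was 0.093 (SD 0.18, n = 14). It was above 0 in 8 of 14 libraries and ranged from -0.14 to 0.41 (exact sign-flip permutation test, p = 0.0796, adjusted p = 0.159). Without the most covered residue of each region it was 0.042, and with same-numbered WT and High-abc libraries averaged as a replicate block, 0.061. Both High-Leu558 libraries had more reads per residue in the R region than in NBD1, with ratios of 1.23 and 1.33. Both WT-Leu558-in-High-abc libraries were near equality, with 0.987 and 0.999. The 5 WT ratios lay between 0.905 and 1.23, and the 5 High-abc ratios between 0.920 and 1.28. Against residues 851 to 1200, taken as the second membrane domain, the mean log2 ratio was 0.007 (SD 0.17, n = 14, exact sign-flip permutation test, p = 0.882).

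Within the region the reads were unevenly spread, and the same segments of 50 residues were highest and lowest in every group mean. Of the 4 segments of 50 residues, the second, 701 to 750, held the largest part of the region's reads in each group mean. It held 31.5% ± 4.42 (SD, n = 5) in WT, 32.8% ± 4.49 (SD, n = 5) in High-abc, 34.7% ± 1.97 (SD, n = 2) in High-Leu558 and 35.2% ± 1.14 (SD, n = 2) in WT-Leu558-in-High-abc. The third segment, 751 to 800, held the smallest part. It took 18.2% ± 3.95 (SD, n = 5) in WT, 19.0% ± 6.18 (SD, n = 5) in High-abc, 15.5% ± 2.29 (SD, n = 2) in High-Leu558 and 12.4% ± 0.675 (SD, n = 2) in WT-Leu558-in-High-abc. Its lowest library was a High-abc one with 9.56%. The first segment, 651 to 700, held 22.1% to 23.7% and the last, 801 to 850, 25.7% to 30.3% in the group means. Shorter stretches were less alike. Residues 661 to 670 held 1.11% ± 0.627 (SD, n = 5) of CFTR reads in WT and 1.20% ± 0.776 (SD, n = 5) in High-abc. They held 0.764% ± 0.0920 (SD, n = 2) in High-Leu558 and 0.480% ± 0.147 (SD, n = 2) in WT-Leu558-in-High-abc. The mean residue number of the region's reads was 750.2 ± 6.98 (SD, n = 5) in WT and 749.3 ± 6.13 (SD, n = 5) in High-abc. Of 35 comparisons of the 4 segments and this centre, none passed, and none had an unadjusted p below 0.05 (smallest p = 0.0952, adjusted p = 1.00, exact permutation tests). Of the 35, 20 set 5 libraries against 2 and could not pass. The rest could pass after adjustment only if several had a very small p together. In 1 of the 20, segment 751 to 800 between WT and WT-Leu558-in-High-abc, the groups did not overlap. The WT libraries had 14.8% to 24.7% and the others 12.9% and 11.9%, a log2 difference of -0.53 (standard error 0.14). Full separation of 5 from 2 has p = 0.0952 (exact permutation test), so 1 among 20 is not more than chance would give.

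A few residues held much of the signal. The 10 most covered residues of the region held 38.6% ± 6.66 (SD, n = 5) of its reads in WT and 34.9% ± 7.26 (SD, n = 5) in High-abc. They held 30.4% ± 1.27 (SD, n = 2) in High-Leu558 and 33.1% ± 4.63 (SD, n = 2) in WT-Leu558-in-High-abc. A residue's occupancy is its reads over the mean per residue of that library, so that 1 is the average residue of the protein. In the group means, 53 residues of the region lay above 1 in WT and 62 in High-abc, and 46 of these were the same residues. Residues 666, 671, 717, 725, 732, 742, 743, 804 and 829 were above 1 in all 14 libraries.

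**Figure D2:**
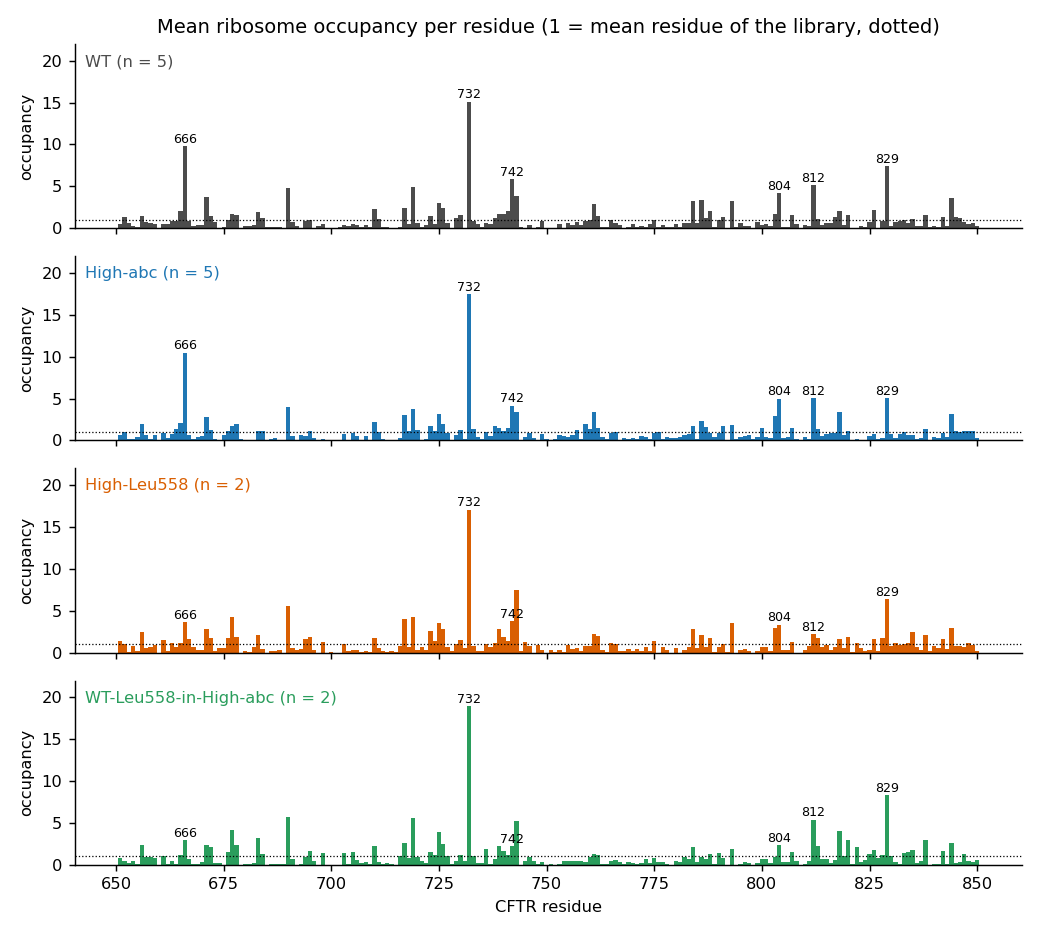
Mean occupancy at each residue from 651 to 850, with 1 panel per construct; the dotted line marks the average residue of the protein. Residue 732 is the tallest bar in all 4 panels, with 15.1 in WT and 17.5 in High-abc, and the labelled residues are the 5 highest of WT and of High-abc.

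Residue 732 was the highest of the region in 10 of 14 libraries. Its share of CFTR reads in WT replicates 1 to 5 was 1.14%, 1.10%, 0.756%, 1.23% and 0.873%. In High-abc it was 1.17%, 1.70%, 0.447%, 1.34% and 1.25%. In High-Leu558 it was 0.969% and 1.34%, and in WT-Leu558-in-High-abc 1.27% and 1.29%. Replicate 3 was the lowest of both groups of 5, and these are the shallowest libraries. Both WT-Leu558-in-High-abc libraries lay above all 5 WT libraries, by 0.30 on the log2 scale (standard error 0.55, edgeR, adjusted p = 0.958), and within the range of High-abc. The mean occupancy of residue 732 was 15.1 in WT, 17.5 in High-abc, 17.1 in High-Leu558 and 18.9 in WT-Leu558-in-High-abc. It ranked between the third and the sixth of all 1480 residues in the 4 groups. The peak was a single residue wide. In WT the residue before it, 731, had a mean occupancy of 0.0513 and the one after it, 733, of 0.866. The log2 change from WT to High-abc at residue 732 was 0.28 (standard error 0.42, edgeR quasi-likelihood test, adjusted p = 0.996). By itself it held 7.77% ± 1.41 (SD, n = 5) of the region's reads in WT and 8.95% ± 3.25 (SD, n = 5) in High-abc.

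Residue 666 was the second highest in the mean of WT and of High-abc, and of all the region's residues its share in percent had the largest SD over the 14 libraries. In WT it held 0.883%, 1.59%, 0.491%, 0.207% and 0.137% of CFTR reads in replicates 1 to 5. In High-abc it held 0.883%, 1.83%, 0.284%, 0.307% and 0.230%. Replicates 1 and 2 were thus the high ones in both groups, and replicate 2 was the highest in each. The share was 0.279% and 0.207% in High-Leu558 and 0.235% and 0.159% in WT-Leu558-in-High-abc, close to replicates 3 to 5 of the larger groups and below their replicates 1 and 2. In WT replicate 2 and High-abc replicate 2, residue 666 was the highest of the region in place of 732. The log2 change from High-abc to WT-Leu558-in-High-abc was -1.91 (standard error 0.84, edgeR, unadjusted p = 0.0264, adjusted p = 0.995), and from WT to the same construct -1.82 (standard error 0.83, edgeR, adjusted p = 0.761). These changes rest in part on 1 library each: they were -1.05 without High-abc replicate 2 and -1.03 without WT replicate 2. With the replicate number as a block, which sets the groups of 2 against the replicates 1 and 2 that were high here, both passed. The changes were then -2.77 (edgeR, adjusted p = 3.72e-05) and -2.57 (edgeR, adjusted p = 6.60e-05). The numbers of the groups of 2 were not shown to pair them with those replicates.

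The other residues in the 5 highest of WT or of High-abc were 742, 804, 812 and 829. In WT, residue 829 took 0.623%, 0.815%, 0.227%, 0.242% and 0.599% of the reads. The High-abc libraries gave 0.270%, 0.308%, 0.244%, 0.260% and 0.609%. With High-Leu558 the values at residue 829 were 0.363% and 0.502%, and with WT-Leu558-in-High-abc 0.373% and 0.753%, all within the range of WT. In WT, residue 812 took 0.139%, 0.435%, 0.793%, 0.104% and 0.274%. The High-abc libraries gave 0.108%, 0.600%, 0.487%, 0.0837% and 0.419%. It was low in replicates 1 and 4 of both groups, and it was the highest residue of the region in replicate 3 of both. The share of residue 812 was 0.0466% and 0.246% in High-Leu558 and 0.224% and 0.507% in WT-Leu558-in-High-abc. Residue 742 had a mean occupancy of 5.84 in WT, 4.13 in High-abc, 3.78 in High-Leu558 and 2.19 in WT-Leu558-in-High-abc. The groups overlapped at residue 742 all the same, and its log2 change from WT to WT-Leu558-in-High-abc was -1.36 (standard error 0.71, edgeR, adjusted p = 0.770). Residue 804 had 4.20, 4.98, 3.34 and 2.37 in the same order of constructs. It did not pass either, with a log2 change of -1.15 from High-abc to WT-Leu558-in-High-abc (standard error 0.68, edgeR, adjusted p = 0.995). These groups did not overlap at residue 804: High-abc had 0.203% to 0.487% and WT-Leu558-in-High-abc 0.159% and 0.160%. The WT range, 0.113% to 0.377%, held both of the latter.

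Residue 743, next to 742, was picked out after its values were seen. Its share in WT replicates 1 to 5 was 0.0693%, 0.113%, 0.151%, 0.552% and 0.411%. In High-abc it was 0.162%, 0.103%, 0.122%, 0.446% and 0.299%. Replicates 4 and 5 of both groups lay above replicates 1 to 3. The share was 0.503% and 0.512% in High-Leu558 and 0.395% and 0.304% in WT-Leu558-in-High-abc, at the level of replicates 4 and 5. From WT to High-Leu558 the log2 change at residue 743 was 1.02 (standard error 0.66, edgeR, adjusted p = 0.883).

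Residues 725, 690 and 719 complete the 10 most covered of the region, and they too were picked out after their values were seen. Residue 725 varied least of the 10, with an SD over the 14 libraries of 0.30 on the scale of log2(percent + 0.01), against 1.19 for residue 666. Its share ran from 0.151% to 0.223% in WT and from 0.180% to 0.251% in High-abc, and was 0.335% and 0.148% in High-Leu558 and 0.275% and 0.261% in WT-Leu558-in-High-abc. Residue 725 was thus a small peak that all libraries showed, at about 3 times the average residue in WT (mean occupancy 2.96). Its occupancy ran from 2.19 to 4.96, and both extremes were High-Leu558 libraries. Replicate 3 of WT and of High-abc had only 4 and 5 reads there. Residue 690 had a mean share of 0.327% ± 0.125 (SD, n = 5) in WT, 0.271% ± 0.144 (SD, n = 5) in High-abc, 0.379% ± 0.0216 (SD, n = 2) in High-Leu558 and 0.383% ± 0.0502 (SD, n = 2) in WT-Leu558-in-High-abc. Residue 719 had 0.333% ± 0.194 (SD, n = 5), 0.251% ± 0.0975 (SD, n = 5), 0.288% ± 0.0248 (SD, n = 2) and 0.378% ± 0.121 (SD, n = 2) in the same order. At residues 690 and 719 the lowest library of each group of 5 was replicate 3, the shallowest, with 1 to 5 reads there, and the groups overlapped.

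**Figure D3:**
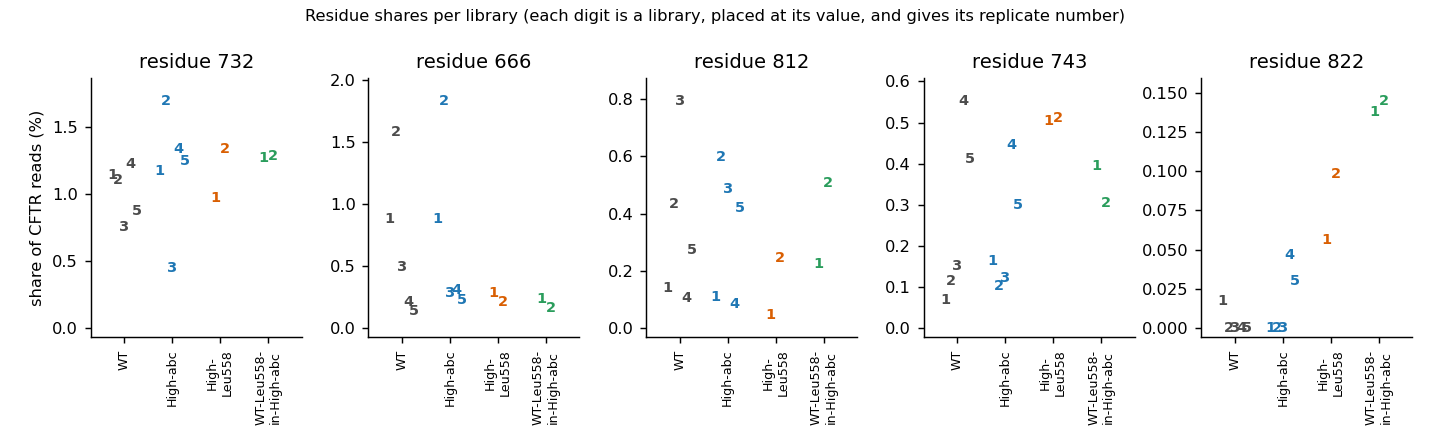
Share of CFTR reads at residues 732, 666, 812, 743 and 822 in each library, in percent on linear axes that differ between panels; each digit is a library at its value and gives its replicate number. At residue 666 replicates 1 and 2 of WT and High-abc stand highest, and at residue 743 replicates 4 and 5 of both.

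The whole profile of the region was also more alike between WT and High-abc libraries of the same number. Over its 200 residues, the mean Spearman correlation between WT and High-abc libraries was 0.668 over the 5 pairs with the same replicate number and 0.543 over the 20 pairs with different numbers. Among WT libraries it was 0.587 and among High-abc libraries 0.536, over 10 pairs each. In 4 of 5 cases the High-abc library most like a WT library carried its number. The exception was WT replicate 2, closest to High-abc replicate 4 (0.756, against 0.664 for High-abc replicate 2). Over all 91 pairs of libraries the highest correlation, 0.854, was between High-abc replicate 4 and High-Leu558 replicate 1, which have different numbers. The residues share their library and its depth, so these correlations are descriptions. What a replicate number shares is not given in the labels, and the part of any batch in these likenesses was not tested.

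**Figure D4:**
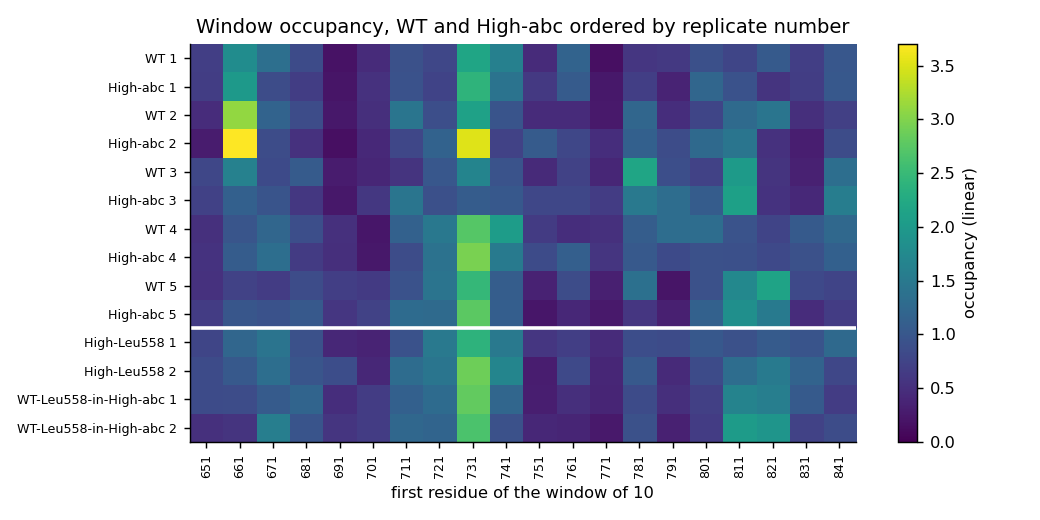
Occupancy of the 20 windows of 10 residues in each library on a linear colour scale; WT and High-abc libraries of the same replicate number are adjacent, and the white line sets off the groups of 2. The window from 731 is bright in nearly all libraries, and the window from 661 is brightest in replicate 2 of WT and of High-abc.

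Changes at single residues were tested over the whole protein with edgeR. A filter on low counts left 47 of the region's 200 residues, 23.5%, which held 66.8% of its reads. Of these 47, none passed an adjusted p of 0.05 in any of the 5 pairs of groups. Over the 314 residues tested along the protein, 0.637% passed between WT and High-abc, 0.318% between WT and High-Leu558, 0.637% between High-abc and WT-Leu558-in-High-abc, 0% between WT and WT-Leu558-in-High-abc, and 0.318% between High-Leu558 and High-abc. The count of 0 in the region is near this background. At an unadjusted p below 0.05, edgeR gave 0, 1, 3, 2 and 1 of the 47 residues in the same order of pairs, against 16, 11, 12, 16 and 13 of all 314. DESeq2 called none of the region's residues after adjustment. The median standard error of the 47 log2 changes was 0.57 in High-abc against WT and 0.73 or 0.74 in the pairs with a group of 2. With the replicate number as a block, 2 to 4 of the residues 666, 677, 742 and 743 passed in each of the 4 pairs with a group of 2.

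The residues with the smallest unadjusted p in a pair did not pass without the block. Residue 677 had the smallest between WT and High-Leu558, with a log2 change of 1.35 (standard error 0.65, edgeR, adjusted p = 0.883). Its mean share was 0.115% ± 0.0818 (SD, n = 5) in WT and 0.287% ± 0.0294 (SD, n = 2) in High-Leu558. The share in WT replicate 4 was 0.259%, so the groups nearly met. At residue 803 the mean share of High-abc was 0.197% ± 0.0479 (SD, n = 5), and WT-Leu558-in-High-abc had 0.0603% ± 0.0444 (SD, n = 2). There the 5 libraries of one group lay above the 2 of the other, with a log2 change of -1.62 (standard error 0.73, edgeR, adjusted p = 0.995). The group of 2 had 18 reads there, and the change was -2.81 without its replicate 1 and -1.09 without its replicate 2. The other residues named by this rule were 759, 786, 788 and 835, with 9 to 128 reads per group and adjusted p from 0.770 to 0.996 in the pairs where they stood out (edgeR).

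All 20 windows of 10 residues in the region could be tested. None passed in any of the 5 pairs, by edgeR or by DESeq2. Over the 144 windows of the protein, 0.694% passed in High-abc against WT, 0.694% in High-Leu558 against WT and 0% in each of the other 3 pairs. At an unadjusted p below 0.05, edgeR gave 0, 0, 6, 0 and 1 of the 20 windows, in the same order of pairs as for the residues, against 5, 5, 8, 5 and 5 of all 144. From WT to High-abc the 20 log2 changes lay between -0.56 and 0.57, with a median of 0.05 in the region and 0.02 over all windows. The median standard error of a window was 0.29 in this pair.

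The highest window of the region in WT was 731 to 740, with a mean occupancy of 2.23 in WT, 2.55 in High-abc, 2.64 in High-Leu558 and 2.73 in WT-Leu558-in-High-abc. Residue 732 supplied 68.1% ± 10.3 (SD, n = 5) of its reads in WT. The lowest window was 771 to 780, with occupancies of 0.328, 0.440, 0.424 and 0.319 in the same order. It was thus less covered than the average residue in every group mean. From WT to High-abc, the window from 731 to 740 had a log2 change of 0.23 (standard error 0.30, edgeR, adjusted p = 0.995) and that from 771 to 780 one of 0.44 (standard error 0.36, edgeR, adjusted p = 0.995).

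Of the 8 windows of the protein with an unadjusted p below 0.05 between High-abc and WT-Leu558-in-High-abc, 6 lay in the R region, and their adjusted p was 0.703 (edgeR). With the native Leu558 codon back in High-abc, 4 of the 6 had lower values. The window 661 to 670, which holds residue 666, had a log2 change of -1.33 (standard error 0.60), 751 to 760 one of -0.97 (standard error 0.45), 761 to 770 one of -0.86 (standard error 0.39) and 801 to 810 one of -0.72 (standard error 0.31). The windows 681 to 690 and 821 to 830 had higher values, with 0.61 (standard error 0.29) and 1.09 (standard error 0.44). None of these differences passed after adjustment over the 144 windows. The change of the window from 661 was -0.80 without High-abc replicate 2. Under the replicate block, the windows from 661 (-1.86, edgeR, adjusted p = 0.00130) and from 821 (1.29, edgeR, adjusted p = 0.00389) passed, as did those from 691, 811 and 831. The converse change, of the Leu558 codon in the WT background, gave log2 changes of -0.66 (standard error 0.57) for the window from 661 and 0.74 (standard error 0.47) for that from 691 to 700, also short of the threshold (edgeR, adjusted p = 0.936 for both). The window from 691 gave 0.043 without High-Leu558 replicate 2. With the block, both passed: the window from 661 gave -1.22 (edgeR, adjusted p = 0.0239) and that from 691 gave 1.50 (edgeR, adjusted p = 0.00136). At both windows the opposite codon changes thus gave the same sign, with and without the block. From High-abc to WT-Leu558-in-High-abc, the window from 691 changed by 0.53 (standard error 0.48), and by 1.52 with the block. The cause was not tested.

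**Figure D5:**
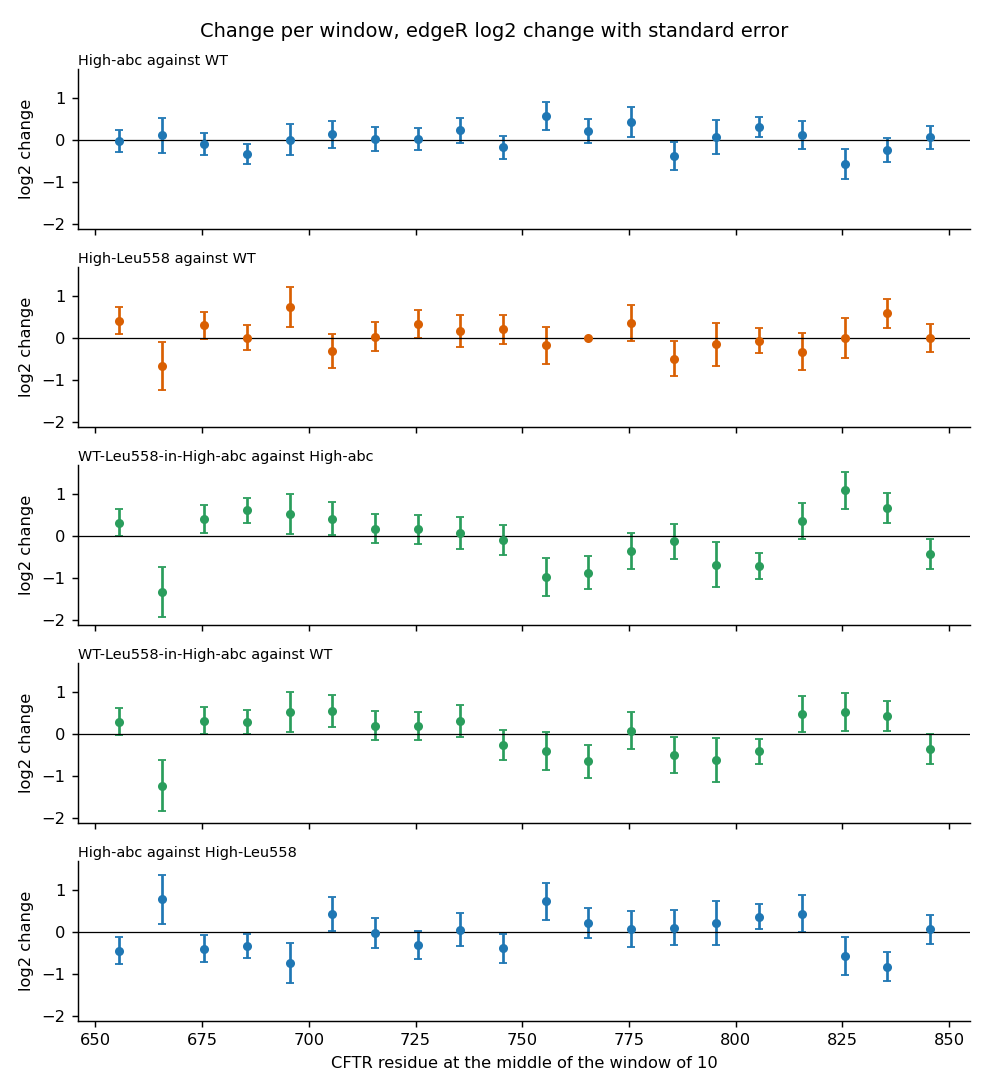
Log2 change of each window of 10 residues in the 5 pairs of groups, with the standard error as bars (the bar of the window from 761 in High-Leu558 against WT is not defined and was left out); the horizontal line marks no change. The WT to High-abc changes stay between -0.56 and 0.57, and no window in any panel passed the threshold in this fit, which has no replicate block.

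Residue 822 was below the filter on low counts and was the one residue of the region called when the filter was left out. It had 1, 0, 0, 0 and 0 reads in WT replicates 1 to 5 and 0, 0, 0, 5 and 3 in High-abc. It had 6 and 10 reads in High-Leu558 and 24 and 10 in WT-Leu558-in-High-abc. Both groups of 2 had a higher share than any WT or High-abc library, and in High-abc the reads came from replicates 4 and 5 alone. Over the libraries of a group, WT had 1 of 52685 reads there and WT-Leu558-in-High-abc 34 of 24356, a ratio of 73.5 with an exact 95% counting interval from 12.3 to 2989.3. Against the 8 of 34623 reads of High-abc, the ratio was 6.04, with a counting interval from 2.74 to 15.1. Without the filter, edgeR gave adjusted p = 0.00591 between WT and WT-Leu558-in-High-abc, and adjusted p of 0.198 to 1.00 in the other 4 pairs. The window 821 to 830, which holds it, was not called in that pair, with a log2 change of 0.53 (standard error 0.44, edgeR, adjusted p = 0.858).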

How the data were processed

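Per the file headers, the deposited files list read counts by CFTR residue for each library, beside a percent. Recomputing the deposited percent from the counts and each library's sum left deviations of at most 0.0005, so counts were used throughout. HISAT2 and hg38 are named, with no role, in the submitters' processing notes. Not given in the sources used here are the read lengths, the sequence mapped to and how a read was placed. A residue is therefore the one to which the authors assigned the read. No molecular identifiers are mentioned, so intervals from counts cover counting error only. No file held a column of another sample, and no pair of libraries was identical. The labels do not say that replicates were separate cultures, so p-values measure only how these libraries vary, and that spread may be technical.

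Shares and density ratios were compared on the log2 scale by two-sided exact permutation of the library labels, within background or codon for comparisons over both (scipy 1.17.1 and numpy 2.4.6 in Python 3.11.15, tables with pandas 2.3.3, figures with matplotlib 3.10.9). Residues and windows of 10 were fitted with edgeR 4.0.16 (limma 3.58.1, R 4.3.3) over residues 21 to 1460 and all 14 libraries: TMM, filterByExpr, quasi-likelihood test, Benjamini-Hochberg at 0.05. The standard error is the log2 change over the square root of F. Libraries of a group varied beyond counting by 53.4% per residue and 31.2% per window (coefficient of variation). The scripts were tested on simulated data.

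Named residues and windows were those past the threshold, the 5 highest residues of WT and of High-abc, the highest and lowest window of WT, the 2 residues and windows with the smallest p in each pair, and those called without a filter. The region, lists and rule were chosen with earlier results of these data known. Deviations from the group mean correlated in all 5 same-numbered pairs of WT and High-abc libraries (r from 0.410 to 0.585 over 314 residues, median -0.178 where numbers differ). By this check, from the data and not from the labels, the numbers pair these libraries. The results reported leave the pairing out, and the replicate block is an alternative. With it, no residue or window of the region passed in High-abc against WT. In the groups of 2, r between same-numbered libraries lay between -0.0377 and 0.0609 over the 314 residues. Over the 47 residues of the region it lay between -0.0953 and 0.269. The deviations of 2 libraries from their mean mirror each other, and whatever both share cancels. Low values there do not show that pairing is absent, and no pairing was taken. Alternatives were other denominators, boundaries, filters, scalings (library totals, DESeq2 1.42.0), windows, the ends kept, only the groups compared, the replicate block and each library left out. Leaving out the residue that varies most, and the block with only WT and High-abc, were chosen after seeing the data.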

Additional observations from a re-analysis of the deposited data

Results flagged for a closer look

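In 62 sets of 5 libraries, each from WT or from High-abc, 1 library stood apart from the rest of its group in 6. For independent sets of normally distributed values, chance flags about 1 set in 20. The sets here are not all independent, and a lone read among zeros, as at residue 822 in WT, is always flagged. WT replicate 5 had 32.6% of its R region reads in residues 801 to 850, against 24.2% to 26.5% in the other WT libraries. WT replicate 4 had 0.259% of its reads at residue 677, against 0.0674% to 0.104%. WT replicate 1 had 0.849% at residue 742, against 0.188% to 0.340%. WT replicate 1 also held the only WT read at residue 822, a share of 0.0173%. High-abc replicate 5 had 0.609% of its reads at residue 829, against 0.244% to 0.308%, and 1.03% in the window 821 to 830 that holds it, against 0.360% to 0.548%.

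At residue 822 the share with the native Leu558 codon was lower than with the replaced codon in every library of the WT background, and higher in every library of the High-abc background. On the log2 scale of mean shares, both backgrounds differed by 7.68 in this respect. Residue 822 was below the filter and so was not tested in the fit reported above. Without the filter, the edgeR interaction term was 7.18 (adjusted p = 0.00386). It rests on 59 reads in all, 1 of them in WT. By its construction, the term sets both groups of 2 libraries against both groups of 5. A codon effect that depends on background cannot be told apart here from a difference between those sets of libraries.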

How the results depend on the processing

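No share, density or segment comparison passed under any alternative run, and no residue or window of the region passed when any 1 library was left out. For the share, density and segment comparisons, the replicate block could not give a pass. It flips the signs of 5 values or fewer, and with 5 the smallest p is 0.0625. Permutation tests of a pair with a group of 2 could not pass in any alternative either. Small log2 differences in share changed sign without passing. High-abc against WT (0.002) became -0.001 with boundaries moved out by 10 residues, -0.014 without residue 732, -0.008 without the most covered 1% of residues and -0.010 with residues capped at the 99th percentile, and ranged from -0.025 to 0.034 with 1 library left out. That from High-abc to WT-Leu558-in-High-abc became -0.012 with boundaries moved out (-0.018 to 0.040 with 1 left out), and that from WT to WT-Leu558-in-High-abc -0.013 with boundaries moved out and -0.011 without residue 732 (-0.006 to 0.047 with 1 left out). The density against the second membrane domain became -0.005 without the most covered residue of each region and -0.040 with same-numbered WT and High-abc libraries averaged as a replicate block (-0.011 to 0.033 with 1 left out). The density relative to the residues before Leu558, native against replaced codon, ranged from -0.098 to 0.020 with 1 left out. Without the filter 1 residue, 822, passed between WT and WT-Leu558-in-High-abc.

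With the replicate number as a block over all libraries, the count stayed 0 in High-abc against WT for residues and windows. The block also matches the groups of 2 to replicates 1 and 2 of WT and High-abc, although their numbers were not shown to pair. There it gave 3 residues between WT and High-Leu558 (666, 677 and 743), 2 between High-abc and WT-Leu558-in-High-abc (666 and 743), 4 between WT and WT-Leu558-in-High-abc (666, 677, 742 and 743) and 3 between High-Leu558 and High-abc (666, 677 and 743). In the same pairs it gave 2 windows (from 661 and 691), 5 (661, 691, 811, 821 and 831), 3 (661, 691 and 811) and 3 (661, 691 and 831). At residues 666 and 743 the opposite codon changes gave the same sign under the block. From WT to High-Leu558 the log2 changes were -2.33 and 2.06, and from High-abc to WT-Leu558-in-High-abc -2.77 and 1.56. The density against NBD1 was 0.12 with boundaries moved in by 10 residues (exact permutation test, p = 0.0353, adjusted p = 0.0706). The cause was not tested. The comparison of residue classes was not run, because no protein sequence was used here.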
